A study of Mus musculus with 6 samples.

Results

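The protein segregase VCP, its cofactors, the ubiquilins, the BAG6 complex and the ubiquitin ligases of the endoplasmic reticulum (ER) membrane other than HRD1 were examined in mouse testis as a list of 39 genes. The list groups genes by known function and was drawn up with earlier results of these data known, its symbols were matched to the gene identifiers of the count tables through GENCODE M21 (GRCm38), and all 39 were found among 55536 genes. All 39 also passed the filter on low counts, which left 21465 genes for the comparison, and the lowest count of any of them in any mouse was 180. Poly(A)+ RNA was sequenced from whole testes of 3 KOStra8 and 3 HETStra8 mice aged 7 weeks, with 1 library per mouse. KOStra8 mice have a floxed and a deleted allele of Sel1L plus the Stra8-Cre transgene, in which a promoter active in male germ cells drives the recombinase. According to the deposited design, HETStra8 littermates carry the same pair of alleles, floxed and deleted, so that both groups share the deletion and differ in the transgene. The study's text applies the name HETStra8 to Sel1L flox/+;Stra8-Cre animals too, and the genotype of single mice is not given in the sources used here. Stra8-Cre is only partly active in spermatogonia, and by the study's staining SEL1L protein remained in spermatogonia and in Sertoli cells, so the knockout concerns spermatocytes and spermatids within a mixed tissue.

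ER-associated degradation (ERAD) moves misfolded proteins out of the ER, tags them with ubiquitin and hands them to the proteasome. SEL1L is the partner of the ligase HRD1 in the best-known branch of ERAD, while other membrane ligases serve substrates of their own. VCP is the ATPase that pulls tagged proteins from the membrane, with UFD1 and NPL4 as its usual ubiquitin receptor and UBX proteins as alternative adaptors. Downstream of it, ubiquilins and RAD23 proteins shuttle substrates to the proteasome, and the BAG6 complex with SGTA holds exposed membrane segments soluble in the cytosol. The question addressed here was whether transcripts of this machinery differed in testes whose spermatocytes and spermatids lack SEL1L.

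Library totals lay between 28875108 and 36526695 counts. For Sel1l itself 1549, 1603 and 1413 counts were found in the HETStra8 testes and 846, 636 and 741 in the KOStra8 testes, a log2 difference of -1.07 (SE 0.104, adjusted p = 6.1e-04 by edgeR's quasi-likelihood test with Benjamini-Hochberg adjustment). Markers of spermatocytes summed to between 4033 and 4301 CPM and those of elongating spermatids to between 12722 and 14367 CPM over the 6 mice. Markers of epididymis summed to 7.19 CPM in HETStra8 mouse 1 and to between 0.0822 and 0.372 CPM in the other mice. Of 11 marker lists, that of Sertoli cells alone separated the groups, at 870 to 1055 CPM in HETStra8 and 723 to 840 CPM in KOStra8 mice. Among all single genes tested, 8.43% were lower and 9.33% higher in KOStra8 without overlap. No tested marker of any list passed an adjusted p of 0.05. Over 21267 genes, HETStra8 mouse 3 had a chi-square per degree of freedom of 9.45 to 12.5 against the KOStra8 libraries. Against HETStra8 mouse 2 it was 14.1 and against HETStra8 mouse 1 it was 27.3. HETStra8 mouse 1 itself had values of 13.6 to 40.6 against the other libraries. Since whole testis was sequenced, fewer cells of a type and less RNA per cell cannot be told apart in these values.

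None of the 39 genes differed between KOStra8 and HETStra8 testes by more than 2-fold at an adjusted p of 0.01, a cutoff that 0.00466% of all genes tested passed in each direction. That share is 1 gene higher and 1 lower, so a count of 0 says little about the list. The study reported more genes in each direction at these cutoffs, and its text does not name the test that gave them. At an adjusted p of 0.05, whatever the fold, the count was also 0 of 39 by edgeR, against 0.0233% of all genes, and 0 of 39 by DESeq2, against 1.66%. The smallest adjusted p among them was 0.183, that of Bag6, by edgeR's quasi-likelihood test with Benjamini-Hochberg adjustment. At an unadjusted p of 0.05, Svip and Ubxn2a were higher in KOStra8, which is 5.13% of the list against 7.13% of all genes, and Nploc4, Bag6 and Sgta were lower, which is 7.69% of the list against 5.12% of all genes. DESeq2 placed Svip higher (7.08% of all genes) and the same 3 genes lower (4.43% of all genes) at that level. The log2 fold changes lay between -0.24 and 0.36 with a median of -0.08, beside a median of -0.0094 over all genes, and 27 of 39 (69.2%) were below 0, beside 51.5% of all genes.

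The mice bounded these differences closely in the fit without a correction for base composition. These bounds leave out the shift made by that correction, which is described further on. It placed Yod1 at -0.34, outside its uncorrected interval of -0.23 to 0.14, and Bag6 at -0.08, outside -0.38 to -0.11. The 95% intervals of all 39 log2 fold changes lay within a 2-fold change in either direction, as did those of 73.4% of all genes tested. For 38 of the 39 the interval also lay within 1.5-fold (50.9% of all genes), the exception being Ubxn2a, and for 13 it lay within 1.2-fold (10.1% of all genes). The intervals reached 0.14 to 0.36 on the log2 scale to either side of the estimate, with a median of 0.19, and the outermost bounds of the list were -0.52 for Ubl4a and 0.73 for Ubxn2a. The intervals of Bag6, Sgta, Nploc4, Svip and Ubxn2a excluded 0, but they are not adjusted for the number of genes tested. Groups that did not overlap were found for 4 genes with higher KOStra8 levels (10.3%, against 9.33% of all genes), namely Ubxn2a, Ubxn2b, Svip and Atxn3. They were also found for 7 genes with lower KOStra8 levels (17.9%, against 8.43% of all genes), namely Faf1, Ubxn11, Nsfl1c, Ubqln1, Bag6, Ubl4b and Sgta.

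**Figure D1:**
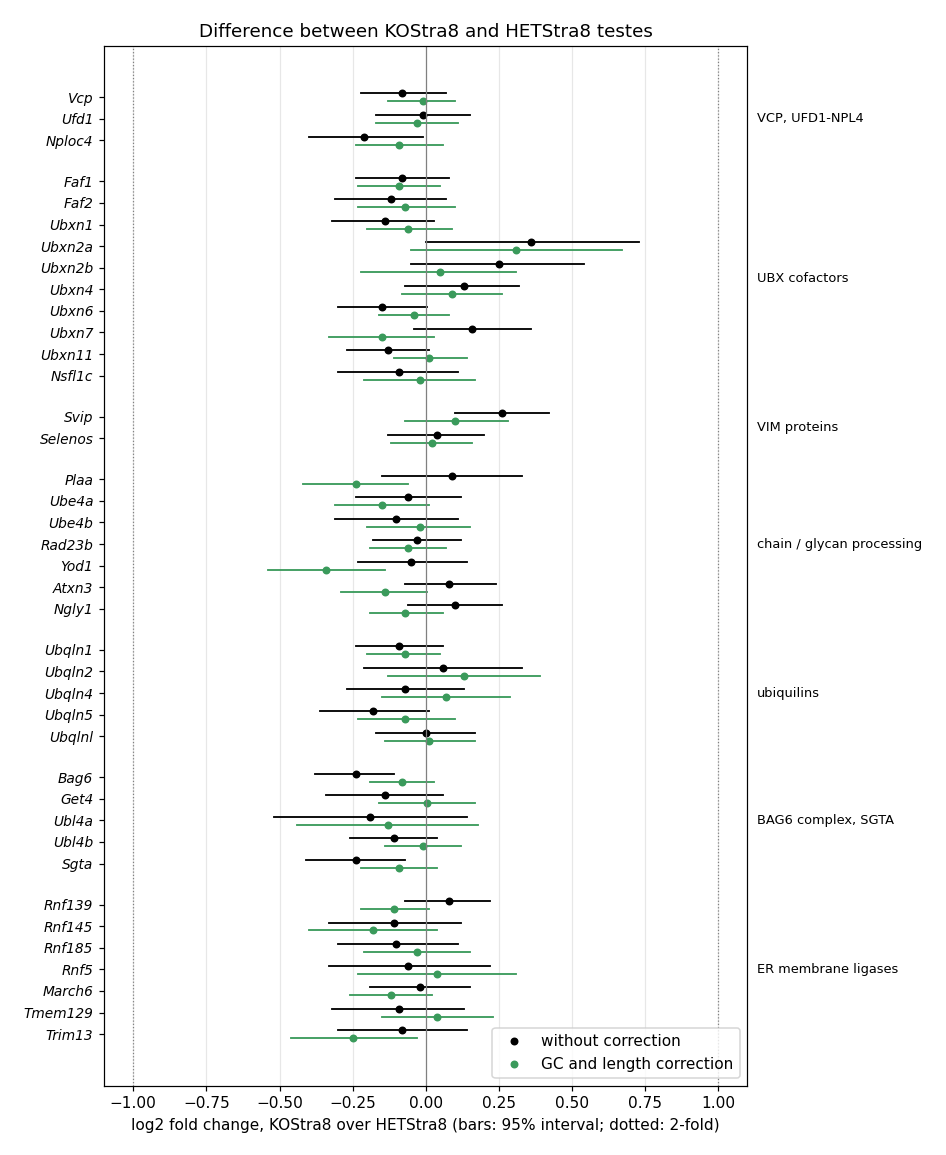
Log2 fold change of each of the 39 genes (horizontal axis, KOStra8 over HETStra8, n = 3 mice per group) by role, without a correction (black) and with the GC and length correction (green). Bars are 95% intervals and dotted lines mark a 2-fold change. Every black interval lies inside the dotted lines, the widest is that of Ubxn2a, and the estimates run from -0.24 for Bag6 and Sgta to 0.36 for Ubxn2a.

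These counts moved most with HETStra8 mouse 3. Without it, 3 genes passed an adjusted p of 0.05 in edgeR's quasi-likelihood test (7.69% of the list, against 4.9% of all genes), namely Nploc4 (-0.30, adjusted p = 0.0256), Bag6 (-0.26, adjusted p = 0.028) and Sgta (-0.28, adjusted p = 0.0473). At an unadjusted p of 0.05 the counts without this mouse were 5 higher (12.8%, against 11% of all genes) and 7 lower (17.9%, against 8.81%). With the correction for base composition described further on as well, Yod1 was the 1 gene past an adjusted p of 0.05 (-0.43, adjusted p = 0.0221, against 1.53% of all genes), and Nploc4, Bag6 and Sgta had adjusted p-values of 0.307, 0.666 and 0.53. Without any 1 of HETStra8 mouse 2, KOStra8 mouse 2 and KOStra8 mouse 3, the higher count was 1, and without KOStra8 mouse 3 the lower count was 1 as well.

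Levels within a testis were compared as CPM per kilobase of annotated exon, because longer transcripts collect more reads. Bag6 led the list in HETStra8 mice at 239.7 ± 15.4 CPM per kilobase (SD, n = 3), above 99.3% of all genes tested. Ubl4b followed at 157 ± 0.339 and Ubqlnl at 120.1 ± 6.63, both of them paralogs of widely expressed genes. At the other end stood Ubl4a at 2.56 ± 0.134, Ubxn2a at 2.24 ± 0.328 and Ubxn2b at 1.62 ± 0.209 CPM per kilobase, below the middle of all genes tested. Of 38 pairs of neighbours in this order, 15 did not overlap between HETStra8 mice and 23 did, so the upper ranks were separate one by one (Bag6, Ubl4b, Ubqlnl, Rnf139, Ubxn6, then Vcp) and most of the middle ranks were not. With the longest transcript in place of all exons as the length, 9 of the 10 highest genes remained among the first 10, but the order below Ubl4b differed, with Ubxn6 at 142, Ubxn11 at 136, Rnf139 at 124, Ubqlnl at 120.1 and Vcp at 104 CPM per kilobase. For 7 of the 39 genes over 5% of their 50-base sequences also occur in another gene, mostly a pseudogene or predicted gene, and their levels are uncertain to that extent: Vcp, Ubxn2a, Nsfl1c, Get4, Ubl4a, Rnf5 and Trim13.

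**Figure D2:**
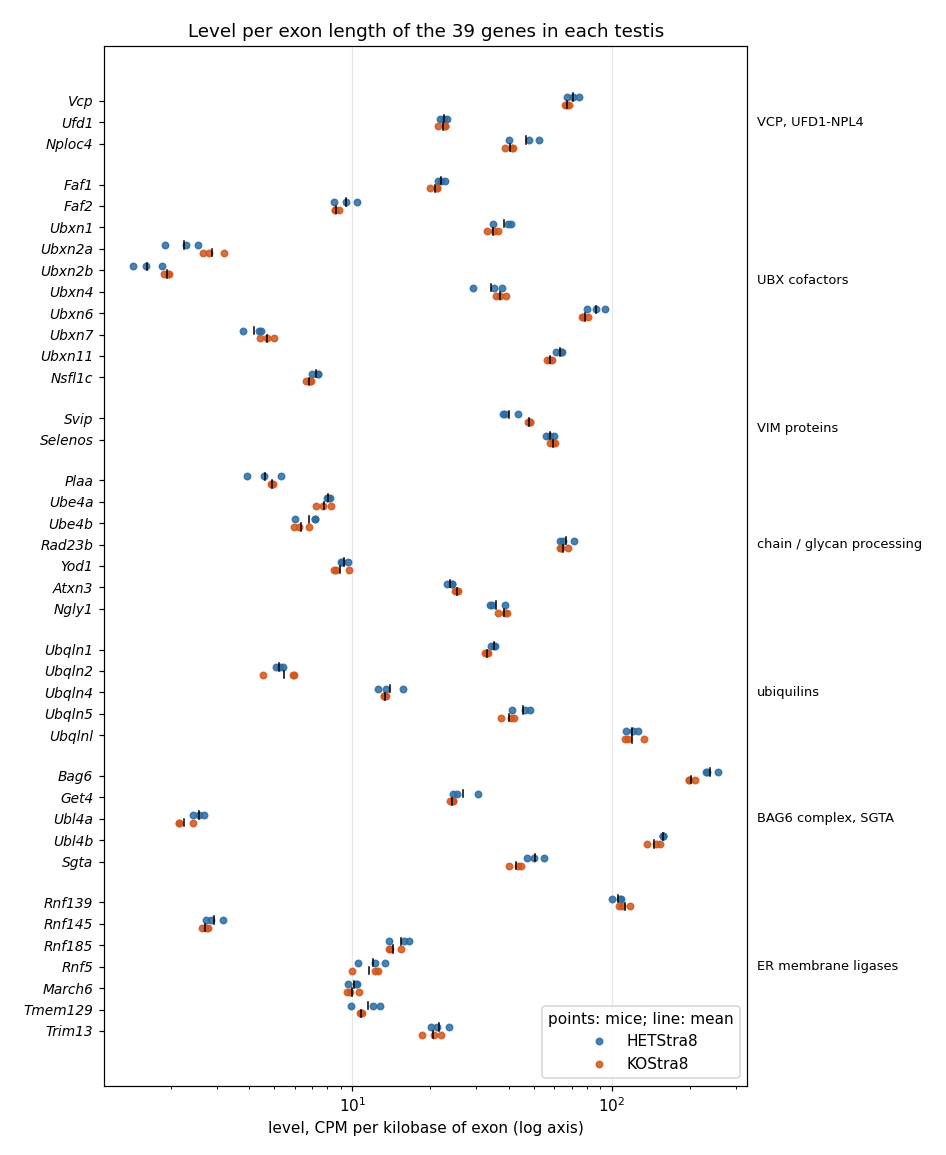
Level of each of the 39 genes in each testis in CPM per kilobase of exon (horizontal log axis), with points for mice, short vertical lines for group means and roles at the right. The list spans from 1.62 (Ubxn2b) to 239.7 (Bag6) CPM per kilobase in HETStra8, while the blue and orange points of a gene lie close together.

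Vcp, Ufd1 and Nploc4 encode the segregase and its ubiquitin receptor. Vcp, on chromosome 4 (GRCm38, 42979963 to 43000507, minus strand), had, in the order of mice 1 to 3, 364, 343 and 326 CPM in HETStra8 and 327, 333 and 321 CPM in KOStra8. The groups overlapped, with HETStra8 mouse 1 highest and KOStra8 mouse 3 lowest, and the log2 fold change was -0.08 (SE 0.0679, 95% interval -0.22 to 0.07, adjusted p = 0.687 by edgeR). Ufd1 had 97.5, 94.3 and 100.3 CPM in HETStra8 mice and 92.4, 98.6 and 98.6 CPM in KOStra8 mice, which overlapped as well (log2 fold change -0.01, 95% interval -0.17 to 0.15). Nploc4, which encodes NPL4, had 249.8, 229 and 192 CPM in HETStra8 and 199, 186 and 196 CPM in KOStra8 mice. Its HETStra8 values were the most spread of the 3 genes, HETStra8 mouse 3 lay among the KOStra8 mice, and the log2 fold change of -0.21 had an adjusted p of 0.381 in edgeR's quasi-likelihood test. When the fit was corrected for GC content and transcript length, as described further on, it was -0.09 (95% interval -0.24 to 0.06).

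Per exon length, Vcp transcripts exceeded those of Ufd1 by 3.17 ± 0.225 times in HETStra8 and 3.03 ± 0.125 times in KOStra8 mice (SD, n = 3 each), and Nploc4 exceeded Ufd1 by 2.09 ± 0.312 and 1.82 ± 0.124 times. In both ratios the ranges of the groups overlapped. These ratios depended on the length used, and with the longest transcript they were 2.22 and 1.16 in HETStra8 mice. Vcp shares 40.5% of its sequences of 50 bases with Vcp-rs, a pseudogene on the X chromosome, so reads can be hard to place between them. Vcp-rs had 69 to 118 counts per mouse, 0.806% of the counts of Vcp, and with these added the log2 fold change of Vcp was -0.07 (adjusted p = 0.691 by edgeR).

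Because VCP cofactor and ERAD genes include targets of the unfolded protein response, the promoter windows of RefSeq (GRCm38.p6, 250 bases before to 50 bases after each start) were searched on both strands for 5 motifs named for ER stress or cAMP factors. Windows were found for 34 of the 39 genes. The motif UPRE, with the letters TGACGTGG, was present in 1 of them, Vcp, and in 0.676% of all 32851 windows. The motif CRE, with the letters TGACGTCA, was present in Sgta and in 1.79% of all windows. ERSE, ERSE-II and the CRE variant were in none of the 34, and in 0.119%, 0.0365% and 0.499% of all windows. The bases before the start site of Vcp and Sgta are shown because these 2 of the 34 held a match, with the motif in capitals at positions -114 to -107 and -30 to -23 from the start. From a second listed start of Sgta the same letters lie at -125 to -118. A match of letters is a description and not a bound site.
Vcp (chr4:43000508-43000757, minus strand): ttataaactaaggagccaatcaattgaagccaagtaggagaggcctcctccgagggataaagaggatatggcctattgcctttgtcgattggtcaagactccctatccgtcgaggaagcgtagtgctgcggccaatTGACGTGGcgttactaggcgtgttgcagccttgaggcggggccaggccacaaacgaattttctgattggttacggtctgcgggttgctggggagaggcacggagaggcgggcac
Sgta (chr10:81060272-81060521, minus strand): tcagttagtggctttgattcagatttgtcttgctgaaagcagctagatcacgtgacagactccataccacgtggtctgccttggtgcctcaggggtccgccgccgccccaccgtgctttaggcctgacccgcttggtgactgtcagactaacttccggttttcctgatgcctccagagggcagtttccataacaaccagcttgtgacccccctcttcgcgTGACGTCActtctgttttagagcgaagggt

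The 10 UBX cofactors link VCP to particular membranes and substrates. Of these, 6 had log2 fold changes below 0 and 4 above, beside 51.5% of all genes below 0. The values lay between -0.15 and 0.36 with a median of -0.09. At an unadjusted p of 0.05, 1 (Ubxn2a) was higher, beside 7.13% of all genes, and 0 were lower, beside 5.12%. The lowly expressed pair Ubxn2a and Ubxn2b, both relatives of Nsfl1c, whose product serves VCP in membrane fusion, had the largest positive values of the group. Ubxn2a had 7.19, 5.35 and 6.42 CPM in HETStra8 and 7.5, 7.88 and 9.01 CPM in KOStra8 mice. No KOStra8 mouse was as low as any HETStra8 mouse, though KOStra8 mouse 1 and HETStra8 mouse 1 nearly met, and the log2 fold change was 0.36 (SE 0.17, 95% interval 0.00082 to 0.73, adjusted p = 0.406 by edgeR). Ubxn2b had 9.48, 10.6 and 12.2 CPM in HETStra8 and 13, 12.4 and 13 CPM in KOStra8 mice, again without overlap (log2 fold change 0.25, adjusted p = 0.48 by edgeR). Its HETStra8 mouse 3 lay next to the KOStra8 mice, and the GC-corrected log2 fold change was 0.05, whereas that of Ubxn2a was 0.31.

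Ubxn7, an adaptor between VCP and cullin ligases, had 47.7, 55.3 and 56.1 CPM in HETStra8 and 55.7, 59.5 and 62.9 CPM in KOStra8 mice. The groups overlapped at HETStra8 mouse 3 and KOStra8 mouse 1, and the log2 fold change of 0.16 (95% interval -0.04 to 0.36) turned to -0.15 with the GC and length correction. Ubxn6, a cofactor of VCP at endosomes and lysosomes and the most abundant UBX member per length (87.1 ± 6.94 CPM per kilobase, SD, n = 3, HETStra8), had 535, 494 and 456 CPM in HETStra8 and 436, 461 and 441 CPM in KOStra8 mice. Only HETStra8 mouse 3 lay inside the KOStra8 range, and the log2 fold change was -0.15 (95% interval -0.30 to 0.0039, adjusted p = 0.417 by edgeR) and -0.04 with the correction. On the opposite strand, exons of Chaf1a cover 81.8% of the exons of Ubxn6, and the strand setting of the counting is not given in the sources used here, so reads of the 2 genes could be mixed. Ubxn4 and Faf2, which sit in the ER membrane and recruit VCP to it, had log2 fold changes of 0.13 (95% interval -0.07 to 0.32) and -0.12 (-0.31 to 0.07). Faf1, Ubxn1, Ubxn11 and Nsfl1c had values between -0.14 and -0.08, and in Faf1, Ubxn11 and Nsfl1c the KOStra8 mice were below all HETStra8 mice, as in 8.43% of all genes.

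Svip and Selenos are small proteins that tether VCP to the ER membrane through a VCP-interacting motif, and SVIP is known as an inhibitor of ERAD. Svip had 155, 136 and 138 CPM in HETStra8 and 172, 169 and 173 CPM in KOStra8 mice. The KOStra8 mice were tightly grouped above every HETStra8 mouse, and the nearest HETStra8 value was that of mouse 1. Its log2 fold change of 0.26 (SE 0.075, 95% interval 0.10 to 0.42) had the smallest p among genes with higher KOStra8 levels and an adjusted p of 0.207 in edgeR's quasi-likelihood test. With the correction it was 0.10 (95% interval -0.07 to 0.28). Selenos lay at 82.5 to 88.3 CPM in HETStra8 and 85.2 to 89.3 CPM in KOStra8 mice, with a log2 fold change of 0.04 (95% interval -0.13 to 0.20).

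Proteins that edit ubiquitin chains or remove glycans beside VCP comprised 7 genes. Their log2 fold changes lay between -0.10 (Ube4b) and 0.10 (Ngly1), with a median of -0.03, and 4 of 7 were below 0, beside 51.5% of all genes. None passed an unadjusted p of 0.05, at which 7.13% of all genes were higher and 5.12% lower. Ngly1, the enzyme that strips N-glycans from proteins after their exit from the ER, had 255, 260.2 and 292 CPM in HETStra8 and 275, 294 and 299 CPM in KOStra8 mice. HETStra8 mouse 3 lay among the KOStra8 mice, and the log2 fold change of 0.10 (95% interval -0.06 to 0.26) became -0.07 with the correction. The deubiquitinase gene Atxn3 had 125 to 131 CPM in HETStra8 and 135 to 138 CPM in KOStra8 mice, without overlap, and a log2 fold change of 0.08 that turned to -0.14. This group was GC-poor, with a median GC content of 41.5% against 48.8% over all genes. With the GC and length correction all 7 genes were below 0 with a median of -0.14. Plaa, a ubiquitin-binding partner of VCP (-0.24), and Yod1, a deubiquitinase of VCP substrates (-0.34), then passed an unadjusted p of 0.05, and their adjusted p-values were 0.514 and 0.336 by edgeR's quasi-likelihood test. Rad23b, a shuttle that carries ubiquitylated proteins to the proteasome, was the most abundant of this group per length at 66.6 ± 4.13 CPM per kilobase (SD, n = 3, HETStra8) and had a log2 fold change of -0.03. Ube4a and Ube4b, which extend ubiquitin chains, had values of -0.06 and -0.10.

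The ubiquilins carry a ubiquitin-like domain that docks on the proteasome and a domain that binds ubiquitin. Of the 5 on the list, the most abundant in testis per length was Ubqlnl, on chromosome 7 (GRCm38, 104148259 to 104150556, minus strand), followed by Ubqln5 on the same chromosome and strand (104127912 to 104129826). Both are annotated with 1 exon each, as is Ubqln2 on the X chromosome. Of the summed level per exon length of these 5 genes in HETStra8 mice, Ubqlnl made up 54.7 ± 2.05%, Ubqln5 20.7 ± 1.94%, Ubqln1 15.9 ± 0.567%, Ubqln4 6.35 ± 0.615% and Ubqln2 2.38 ± 0.0333% (SD, n = 3). In KOStra8 mice the shares in the same order were 56.6 ± 2.96%, 19 ± 1.78%, 15.5 ± 0.52%, 6.29 ± 0.297% and 2.59 ± 0.473%. The ranges of the groups overlapped for each of the 5 genes. Ubqlnl transcripts exceeded those of the widely expressed Ubqln1 by 3.44 ± 0.199 times per exon length in HETStra8 and 3.66 ± 0.307 times in KOStra8 mice. With the longest transcript as the length, this ratio was 2.87 in HETStra8 and 3.06 in KOStra8 mice.

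**Figure D3:**
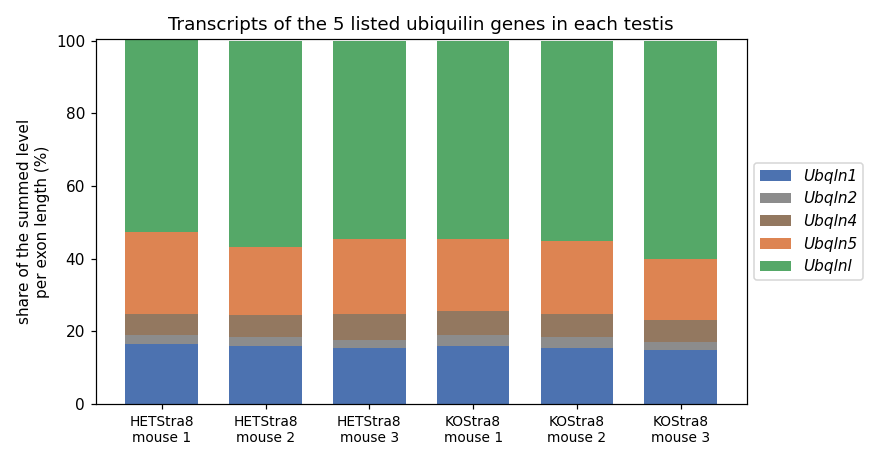
Share of each ubiquilin gene (vertical axis, percent of the summed CPM per kilobase of exon of the 5 genes) in each mouse (horizontal axis, 3 HETStra8 and 3 KOStra8). The column of every mouse is led by Ubqlnl, at 52.8% to 60%, and then by Ubqln5, at 16.9% to 22.5%.

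None of the 5 ubiquilins on the list passed an unadjusted p of 0.05, at which 7.13% of all genes were higher and 5.12% lower. Ubqln5 had 92.3, 79.2 and 88.7 CPM in HETStra8 and 78.1, 80.6 and 71.5 CPM in KOStra8 mice. KOStra8 mouse 2 lay above HETStra8 mouse 2, so the groups overlapped, and the log2 fold change was -0.18 (SE 0.0865, 95% interval -0.36 to 0.01, adjusted p = 0.424 by edgeR) and -0.07 with the correction. Ubqlnl had 259.7, 290.0 and 278 CPM in HETStra8 and 258, 266 and 305 CPM in KOStra8 mice, with the same mean of 276 CPM in both groups and a log2 fold change of 0.0016 (95% interval -0.17 to 0.17). Ubqln1 had 155, 156 and 150.2 CPM in HETStra8 and 145, 143 and 146 CPM in KOStra8 mice. Every KOStra8 mouse was below every HETStra8 mouse, by a log2 fold change of -0.09 (95% interval -0.24 to 0.06, adjusted p = 0.632 by edgeR).

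Ubqln2 had 16.9, 18 and 17.6 CPM in HETStra8 and 19.9, 19.8 and 15.1 CPM in KOStra8 mice, so that the KOStra8 mice included the highest and the lowest value (log2 fold change 0.06, 95% interval -0.21 to 0.33). Ubqln4 had 52.4, 56.2 and 65 CPM in HETStra8 and 56.1, 54.7 and 54.9 CPM in KOStra8 mice, all 3 of the latter inside the HETStra8 range (log2 fold change -0.07, 95% interval -0.27 to 0.13). The ubiquilin genes were distinct enough to be counted apart: their coding sequences were 58.3% identical between Ubqln1 and Ubqlnl and 75.8% between Ubqln1 and Ubqln2, the lowest and highest of the 10 pairs, and none of the 5 shared a stretch of 50 bases with any other gene.

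The BAG6 complex, in which BAG6 holds GET4 and UBL4A, takes membrane proteins from SGTA and either passes them on for insertion or has them degraded. All 5 genes of this group had log2 fold changes below 0, between -0.24 and -0.11 with a median of -0.19, beside 51.5% of all genes below 0, and Bag6 and Sgta were lower at an unadjusted p of 0.05, beside 5.12% of all genes. Bag6, on chromosome 17 (GRCm38, 35135178 to 35147322, plus strand), had 1599.6, 1439.6 and 1429 CPM in HETStra8 and 1238, 1296 and 1239 CPM in KOStra8 mice. The KOStra8 mice were all lower, with group means of 1489 ± 95.5 and 1258 ± 33.4 CPM (SD, n = 3 each) and a log2 fold change of -0.24 (SE 0.0647, 95% interval -0.38 to -0.11, adjusted p = 0.183 by edgeR). Sgta, whose product receives membrane proteins ahead of BAG6, had 157, 145 and 135 CPM in HETStra8 and 125, 128 and 116 CPM in KOStra8 mice. Here too the groups did not overlap, and the log2 fold change was -0.24 (SE 0.0802, 95% interval -0.41 to -0.07, adjusted p = 0.264 by edgeR).

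The group was GC-rich, with a median GC content of 56.5% against 48% over the 39 genes and 48.8% over all genes. With the GC and length correction, Bag6 had a log2 fold change of -0.08 (95% interval -0.19 to 0.03), Sgta one of -0.09 (-0.22 to 0.04) and the group a median of -0.08, with Get4 at 0.0029. Without the correction, medians of markers outside the germ line were -0.28 for Sertoli cells, -0.29 for Leydig cells and -0.24 for endothelial cells. They were -0.17 for blood, -0.13 for peritubular myoid cells and -0.11 for macrophages. Germ cell markers had medians of 0.05 for spermatogonia, 0.05 for spermatocytes, -0.01 for round spermatids and -0.04 for elongating spermatids. Of 7 Sertoli markers tested, 3 were lower at an unadjusted p of 0.05, beside 5.12% of all genes, and the part of these cells in the values of the BAG6 group was not tested. Get4 lay at 59.4 to 74.2 CPM in HETStra8 and 57.8 to 59.6 CPM in KOStra8 mice, with HETStra8 mouse 1 apart from the rest (log2 fold change -0.14, 95% interval -0.34 to 0.06). Per exon length, Bag6 exceeded Get4 by 9 ± 0.508 times in HETStra8 and 8.35 ± 0.173 times in KOStra8 mice, although their products join in a complex, and with the longest transcript as the length by 12.6 times in HETStra8.

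**Figure D4:**
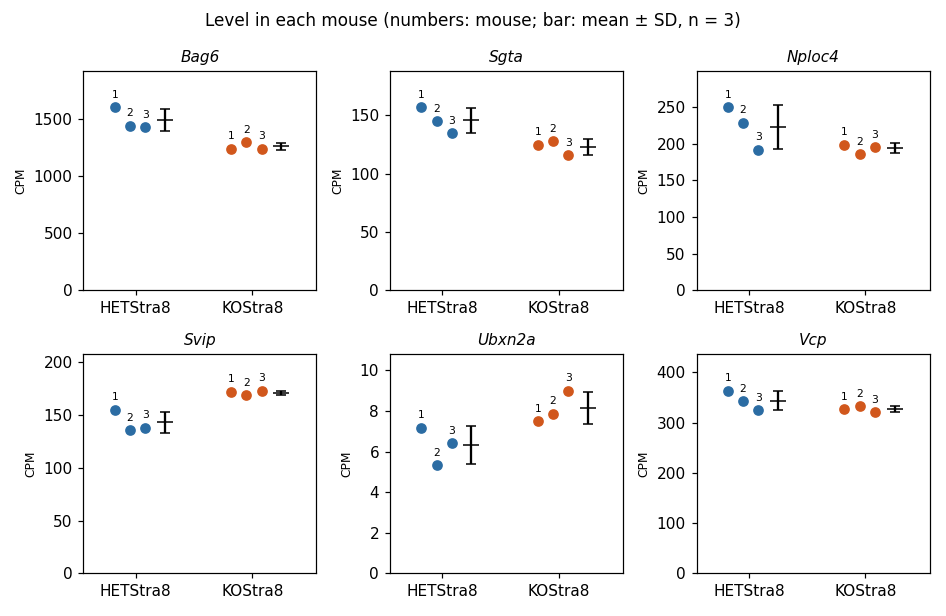
CPM (vertical axis, from 0) of 6 genes in each mouse, numbered 1 to 3 within HETStra8 (blue) and KOStra8 (orange), with bars for mean ± SD (n = 3). In Bag6, Sgta, Svip and Ubxn2a the groups do not overlap, while HETStra8 mouse 3 of Nploc4 and of Vcp lies among the KOStra8 mice.

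Ubl4b, a paralog of Ubl4a without introns, was by far the more abundant of the pair. Ubl4b, on chromosome 3 (GRCm38, 107553687 to 107555073, minus strand, 1 exon), had 217, 218 and 218 CPM in HETStra8 and 189, 212 and 205 CPM in KOStra8 mice. The groups did not overlap, with KOStra8 mouse 1 lowest, and the log2 fold change was -0.11 (SE 0.0706, 95% interval -0.26 to 0.04, adjusted p = 0.559 by edgeR). Ubl4a, on the X chromosome (74365718 to 74373218, minus strand), had 8.43, 8.08 and 7.59 CPM in HETStra8 and 6.76, 7.6 and 6.77 CPM in KOStra8 mice. KOStra8 mouse 2 and HETStra8 mouse 3 had about the same level, and the log2 fold change was -0.19 (SE 0.153, 95% interval -0.52 to 0.14, adjusted p = 0.643 by edgeR). Per exon length, Ubl4b exceeded Ubl4a by 61.5 ± 3.27 times in HETStra8 and 65.1 ± 3.04 times in KOStra8 mice (SD, n = 3 each), with overlapping ranges. With the longest transcript as the length, the ratio was 47.8 in HETStra8 and 50.6 in KOStra8 mice. Exons of Slc10a3 on the same strand cover 8.21% of the exons of Ubl4a, which adds uncertainty to its few counts.

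The first 120 coding bases of both genes are shown to let the paralogs be told apart, with the 47 positions that differ in capitals. Over the whole coding sequence 280 of 452 aligned bases (61.9%) were identical and the longest identical run was 12 bases, and they share no sequence of 50 bases.
Ubl4a: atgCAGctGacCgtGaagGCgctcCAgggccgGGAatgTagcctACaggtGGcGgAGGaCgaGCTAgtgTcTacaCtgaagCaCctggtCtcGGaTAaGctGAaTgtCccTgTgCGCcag
Ubl4b: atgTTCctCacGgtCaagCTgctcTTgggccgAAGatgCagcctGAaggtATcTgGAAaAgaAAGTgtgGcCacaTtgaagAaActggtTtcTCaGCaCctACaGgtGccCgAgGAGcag

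Among the 7 ER membrane ligases other than HRD1, none passed an unadjusted p of 0.05, at which 7.13% of all genes were higher and 5.12% lower. Their log2 fold changes lay between -0.11 (Rnf145) and 0.08 (Rnf139) with a median of -0.08. Of the 7, 6 were below 0, beside 51.5% of all genes, and every 95% interval included 0. With the correction 5 of 7 were below 0, beside 50.3% of all genes. Rnf139, which encodes the sterol-linked ligase TRC8, was the most abundant per length at 106 ± 4.73 CPM per kilobase in HETStra8 and 112 ± 5.66 in KOStra8 mice (SD, n = 3 each). It had 512, 557 and 549.9 CPM in HETStra8 and 562, 546 and 602 CPM in KOStra8 mice, which overlapped, and its log2 fold change of 0.08 (95% interval -0.07 to 0.22) turned to -0.11 with the correction. Rnf145, its relative in sterol control, was the least abundant ligase at 2.92 CPM per kilobase in HETStra8. The paired ligases Rnf185 and Rnf5 had values of -0.10 (95% interval -0.30 to 0.11) and -0.06 (-0.33 to 0.22), and Rnf5 shares 10.1% of its 50-base sequences with a predicted gene, Gm18101. Exons on the opposite strand cover 22.3% of the exons of Rnf139 (Tatdn1) and 24.7% of those of Rnf5 (Gm20463), and with the strand setting not given their reads could be mixed as well. March6, which degrades enzymes of sterol synthesis, was at -0.02 (-0.19 to 0.15), and Tmem129 at -0.09 (-0.32 to 0.13). Trim13 was at -0.08 (-0.30 to 0.14), and with the correction at -0.25 (-0.46 to -0.03), where it passed an unadjusted p of 0.05 with an adjusted p of 0.582 by edgeR's quasi-likelihood test.

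The order of the log2 fold changes within the list ran with base composition. Over the 39 genes, Spearman's rho between log2 fold change and the GC content of the longest transcript was -0.77, and over 21457 genes tested it was -0.46. These are correlations across genes that share the same 6 libraries, so the genes are not independent replicates. Of 16 genes with a GC content of 50% or more, 15 had log2 fold changes below 0, and of 23 genes under 50%, 12 had. A corrected fit took the trend of each library with GC content and transcript length into its offsets. In it the rho over the 39 genes was 0.37, and 10 genes changed sign: Ubxn7, Ubxn11, Plaa, Atxn3, Ngly1, Ubqln4, Get4, Rnf139, Rnf5 and Tmem129. The corrected counts at an unadjusted p of 0.05 were 0 higher (against 4.07% of all genes) and 3 lower (Plaa, Yod1 and Trim13, 7.69% against 3.51% of all genes). The GC contents of these 3 genes were 37%, 39.1% and 42.2%. At an adjusted p of 0.05 the corrected count was 0, against 0.0606% of all genes, with a smallest adjusted p of 0.336 by edgeR's quasi-likelihood test. The 5 genes named at that level without the correction and the 3 named with it had no gene in common, and 27 of 39 were below 0 in both, beside 50.3% of all genes with the correction.

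**Figure D5:**
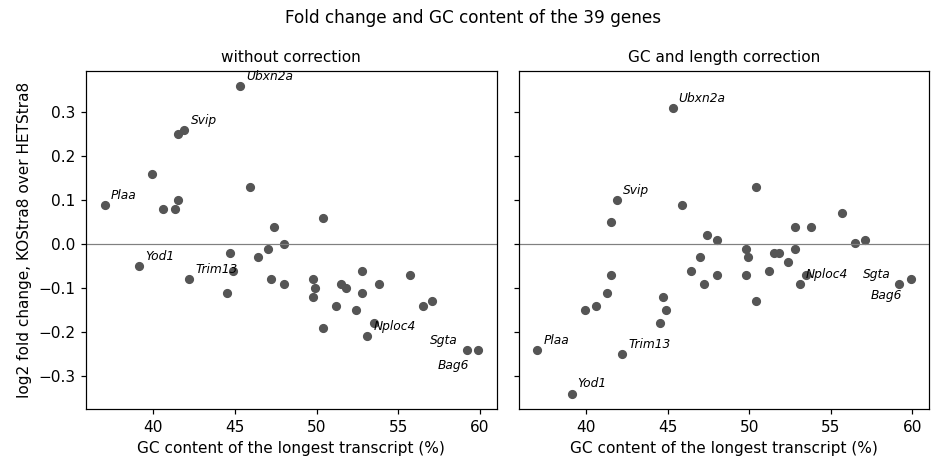
Log2 fold change of the 39 genes (vertical axis, KOStra8 over HETStra8) against the GC content of the longest transcript (horizontal axis, percent), without (left) and with (right) the GC and length correction. The points descend to the right without the correction (Spearman's rho -0.77) and climb with it (0.37), a weaker trend of opposite sign. Bag6 and Sgta move from -0.24 to -0.08 and -0.09.

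Other genes of the pathway were read from lists set by function. Of 32 genes of the HRD1 and gp78 branches, Sel1l alone passed an adjusted p of 0.01. At an unadjusted p of 0.05, 0 of 32 were higher (against 7.13% of all genes) and 5 lower (against 5.12%), namely Sel1l, Herpud1, Derl3, Aup1 and Ubac2, and the median log2 fold change was -0.06. With the GC and length correction 0 were higher (against 4.07% of all genes) and 3 lower (against 3.51%), namely Sel1l, Herpud2 and Ube2k. Herpud1, a scaffold of the HRD1 complex and a target of the unfolded protein response, had 194 ± 10.4 CPM in HETStra8 and 169 ± 6.52 CPM in KOStra8 mice (SD, n = 3 each, log2 fold change -0.20, adjusted p = 0.292 by edgeR), and its corrected value was -0.10, with an adjusted p of 0.744. Of 19 further VCP partners, ubiquitin shuttles and genes of the GET pathway, 18 were matched and tested, Camlg being the one that was not. None passed an adjusted p of 0.05 in edgeR's quasi-likelihood test (against 0.0233% of all genes), and the median was -0.10. At an unadjusted p of 0.05, 1 was higher (Vcpip1, 0.24, against 7.13% of all genes) and 1 lower (Rnf126, -0.15, against 5.12%). With the correction Vcpip1 turned to -0.11, and 0 genes were higher (against 4.07% of all genes) and 3 lower (Ubxn8, Ddi1 and Ddi2, against 3.51%). RNF126 is the ligase that tags clients of BAG6, and with the correction its log2 fold change was 0.0015.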

How the data were processed

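Whole-testis poly(A)+ RNA of 6 mice was sequenced from directional libraries. For every mouse the authors deposited raw counts of each gene, not normalized. The submitters' processing notes name FastQC, Trimmomatic, STAR 2.7.1a, Picard 2.20.4, StringTie 2.0.4, featureCounts 1.6.0, HTSeq and ChIPseeker with the mm10/GRCm38 build, without roles. The strand setting of the counting is not given in the sources used here.

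Counts were compared in R 4.3.3 with edgeR 4.0.16 (filterByExpr, TMM factors of 0.99 to 1.01, robust quasi-likelihood fit on genotype alone, two-sided F test, Benjamini-Hochberg adjustment over 21465 genes). The common biological coefficient of variation was 0.16. CPM are TMM-scaled, and 95% intervals come from the fit's standard errors. With 3 mice per group the smallest p of an exact permutation test is 0.1, so none was run. The study's text ties the mice only as littermates, and their titles give only a group and a mouse number.

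Symbols, exons and GC content came from GENCODE M21 (GRCm38) and promoters from RefSeq (GRCm38.p6). The GC and length correction set offsets from a loess curve per library (span 0.3, genes above a log2 CPM of 2). Sequence identity was computed with Biopython 1.88.

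The 39 genes and all lists were chosen with earlier results of these data known. Values in every mouse are given for Vcp, Ufd1 and Nploc4, the UBL4 and ubiquilin paralogs, the 5 smallest p-values in each direction, and the 3 highest and 3 lowest levels per length. Values in every mouse of Rnf139 were added after its values were seen. Alternatives were DESeq2 1.42.0, limma-voom of limma 3.58.1, other size factors and filters, the mouse number as a block, the correction, and leaving out each mouse. The steps were tested on simulated data. The results for 1 gene of the further lists are not given here. No 2 libraries agreed within sampling noise.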

Additional observations from a re-analysis of the deposited data

How the results depend on the processing

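Without any correction, the counts at an unadjusted p of 0.05 were 2 higher (against 7.13% of all genes) and 3 lower (against 5.12%). The higher count was 1 with the replicate block or with DESeq2, and 0 with the GC and length correction, alone or together with the block. Leaving out each mouse in turn gave 1 to 5 higher, 1 to 7 lower, and 0 to 3 at an adjusted p of 0.05. The largest of these counts came without HETStra8 mouse 3, where 11% of all genes were higher and 8.81% lower. An adjusted p of 0.05 was then passed by 4.9% of all genes, against 0.0233% with all mice. The correction together with leaving out each mouse, chosen after seeing the data, gave 0 to 2 higher, 2 to 8 lower and 0 to 1. That 1 gene also came without HETStra8 mouse 3, where 1.53% of all genes passed. The median of -0.08 was -0.06 with the correction, -0.05 with the correction and the block, -0.08 to -0.06 without each mouse, and -0.07 to -0.03 with the correction and without each mouse. Sel1l lay between -1.13 and -1.01 without each mouse, and its adjusted p by edgeR was 0.0132 without KOStra8 mouse 2 and 0.012 without KOStra8 mouse 3, above 0.01.

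The correction reversed 10 genes: Ubxn7 (-0.15), Ubxn11 (0.01), Plaa (-0.24), Atxn3 (-0.14), Ngly1 (-0.07), Ubqln4 (0.07), Get4 (0.0029), Rnf139 (-0.11), Rnf5 (0.04) and Tmem129 (0.04). With the block as well, these values were the same except for Ubqln4 (0.08) and Get4 (0.0049). Leaving out 1 mouse reversed Plaa (-0.01 to 0.22), Ubqlnl (-0.08 to 0.06), Rad23b (-0.07 to 0.02), Ufd1 (-0.04 to 0.02), Ubqln4 (-0.13 to 0.04), Rnf5 (-0.14 to 0.04) and March6 (-0.06 to 0.02). In all, 25 of 39 genes kept 1 direction in every alternative other than those added after seeing the data. DESeq2, limma-voom, both other size factors and both other filters reversed none.

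Deviations of same-numbered mice from their group means correlated at -0.06, -0.05 and 0.11, and not every mouse correlated best with its own number. Whether the replicate numbers pair the mice, as littermates or in handling, cannot be told from such correlations. The block reversed Ubqlnl (-0.00076) and left 0 genes at an adjusted p of 0.05. The cause of these shifts was not tested.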
